A study of Mus musculus with 22 samples.

Results

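The genes described here build the Fanconi anemia and homologous recombination repair system, a set of 39 gene symbols. Each was looked up in the platform annotation of the array and kept where it had a probe set of its own, that is a probe set with 1 gene symbol. This held for 35 of the 39, out of 22025 genes in all with such a probe set. Fanca and Rad54b lay only on probe sets shared with another gene, no probe set was listed for Xrcc2 and Rbbp8, and these 4 were not analysed further. Fancl, Rad54l and Rmi1 had a probe set of their own and also a shared one, which was not used. The set includes Fance and Cenpx, which the study had already singled out on these arrays (Cenpx under the older name Stra13, a name that other genes have carried too), so their direction in young mice is not independent evidence.

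The RNA came from long-term hematopoietic stem cells, or LT-HSCs, which were sorted by the SLAM markers CD150 and CD48, with CD34, from the lineage-depleted bone marrow of female C57BL/6J mice, with 1 whole-transcript array for each animal. The older groups held 6 AHRVav1 and 6 AHRFX mice aged 18 months, and the younger ones 5 AHRVav1 and 5 AHRFX mice aged 2 months. All 22 mice carried the floxed Ahr allele (Ahr fx/fx). AHRVav1 mice also carried a Cre transgene under the Vav1 promoter, which is active throughout the blood system, so that the aryl hydrocarbon receptor (AHR) is lost across blood cells rather than in LT-HSCs alone. The arrays measure sorted cells in bulk, so fewer cells of a type and less RNA per cell cannot be told apart in any of the values below.

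The Fanconi anemia pathway removes crosslinks that tie the strands of DNA together and stall replication. A core complex of Fanc proteins is brought to the lesion by Fancm and its partners, and its ubiquitin ligase Fancl, with the conjugating enzyme Ube2t, marks the clamp formed by Fancd2 and Fanci, the ID complex. Nucleases then cut the crosslink out, and the broken ends are resected and repaired by homologous recombination, in which Brca1, Palb2 and Brca2 act and the sister strand is copied. Blood stem cells depend on this pathway, and its inherited loss causes bone marrow failure.

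Promoter sequences are shown for the 3 members whose AHRVav1 and AHRFX signals did not overlap at 2 months. They span 300 bases around the gene start, most of them upstream, and are RefSeq sequences of build GRCm38.p6, printed along the strand of the gene. Capitals mark every match, on either strand, to 1 of 4 motifs: GCGTG, the core of the AHR binding site, GCGGGAA, an E2F-type site, TTTGAA, the cell cycle element CHR, and CCAAT. Cenpx lies on the minus strand at chr11:120713759-120714058, Fance on the plus strand at chr17:28313280-28313579, and Fanci on the plus strand at chr7:79392088-79392387.
Cenpx: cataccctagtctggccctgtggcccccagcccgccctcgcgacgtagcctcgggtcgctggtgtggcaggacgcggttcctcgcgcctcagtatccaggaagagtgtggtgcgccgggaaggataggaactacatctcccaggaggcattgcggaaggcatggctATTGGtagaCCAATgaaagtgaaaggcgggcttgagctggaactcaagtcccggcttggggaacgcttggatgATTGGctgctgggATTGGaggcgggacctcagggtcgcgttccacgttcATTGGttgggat
Fance: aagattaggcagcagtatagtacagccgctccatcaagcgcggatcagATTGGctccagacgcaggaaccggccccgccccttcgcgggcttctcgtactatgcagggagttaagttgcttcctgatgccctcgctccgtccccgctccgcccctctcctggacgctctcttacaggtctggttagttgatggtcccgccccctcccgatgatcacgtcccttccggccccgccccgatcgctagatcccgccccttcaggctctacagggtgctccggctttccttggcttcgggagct
Fanci: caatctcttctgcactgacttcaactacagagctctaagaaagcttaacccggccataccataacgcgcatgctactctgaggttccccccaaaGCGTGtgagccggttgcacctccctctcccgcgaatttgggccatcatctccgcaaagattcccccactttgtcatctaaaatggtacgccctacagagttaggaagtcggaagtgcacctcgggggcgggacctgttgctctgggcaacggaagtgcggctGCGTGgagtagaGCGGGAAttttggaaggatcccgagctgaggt

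The Fanci promoter held 2 matches to the AHR core and 1 to the E2F-type site. The Cenpx promoter shown held 5 CCAAT matches and the Fance promoter 1, and neither of these sequences held the AHR core. For Cenpx, Rad51b, Rad51c, Rad54l and Rmi1, 2 promoters were listed and only 1 was searched. A motif absent from it may be present in the other. A promoter was listed for 29 of the 39 genes. The AHR core was present in 12 of the 29, or 41.4%, against 32.5% of all 27025 promoters of this length. The E2F-type site was present in 9 of 29 (31.0%, against 4.66% of all promoters), CCAAT in 19 of 29 (65.5%, against 37.9%) and CHR in 3 of 29 (10.3%, against 18.1%). None of the 4 motifs contains another. Among members with both a promoter and a probe set, the median genotype difference at 2 months was -0.17 for the 12 with the AHR core and -0.44 for the 16 without it, on the log2 scale, with no test. A match describes letters in this window and is not a measured binding site.

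A genotype difference below is the AHRVav1 mean less the AHRFX mean and an age difference the 18-month mean less the 2-month mean, on the scale of log2(signal + 16), where signal is the deposited intensity and the added 16 damps differences between dim values. A member was called above background on an array when its signal exceeded the 95th percentile of 1416 probe sets for olfactory, vomeronasal and trace amine receptors, which are taken to be silent in blood cells. The level of a probe set depends on its probes, so levels are compared between groups and not between genes.

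The arrays of the 2 ages differed in background and in how well they correlated within a group. The background level lay between 26.7 and 30.6 in AHRVav1 and between 25.3 and 31.4 in AHRFX arrays at 18 months, against 67 to 92.5 in young AHRVav1 and 58.0 to 81.9 in young AHRFX arrays. Correlations between arrays of a group, across probe sets, were 0.95 to 0.981 in old AHRVav1, 0.951 to 0.98 in old AHRFX, 0.706 to 0.753 in young AHRVav1 and 0.682 to 0.774 in young AHRFX mice. Of the LT-HSC markers, Kit, the stem cell factor receptor, was above background on every array, and Slamf1, the CD150 antigen of the gate, on every array at 18 months but on 2 of 5 AHRVav1 and 4 of 5 AHRFX arrays at 2 months. Cd34, an antigen that the gate selects against, was above background on all 22 arrays. Ahr itself was below background on all 10 arrays at 2 months. At 18 months it ranged from 18.1 to 38.1 in AHRVav1 mice, with 2 of 6 arrays above background, and from 23.6 to 97.2 in AHRFX mice, with 5 of 6 above background, and the ranges overlapped. Which of its exons the probes read was not known, so this is no check of the deletion.

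Most repair genes were detected at 18 months and few at 2 months. Between 30 and 34 of the 35 members were above background on each AHRVav1 array at 18 months and 30 to 33 on each AHRFX array, where 53.4% to 57.6% and 52.3% to 58.6% of all probe sets were. At 2 months the numbers were 4 to 7 in AHRVav1 mice (median 5) and 4 to 12 in AHRFX mice (median 9). Over all member values of a group, 15.4% were above background in AHRVav1 and 23.4% in AHRFX LT-HSCs at 2 months. The share of all probe sets above background on an array was 25% to 31% in AHRVav1 and 26.8% to 34.5% in AHRFX mice at that age. With background set at the 99th percentile, chosen as an alternative, 11 of 175 member values passed in AHRVav1 and 15 of 175 in AHRFX mice at 2 months. At 18 months 17 to 26 of the 35 members passed it on each AHRVav1 array and 14 to 24 on each AHRFX array. Then 14 members passed in every AHRVav1 mouse and 11 in every AHRFX mouse at 18 months.

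**Figure D1:**
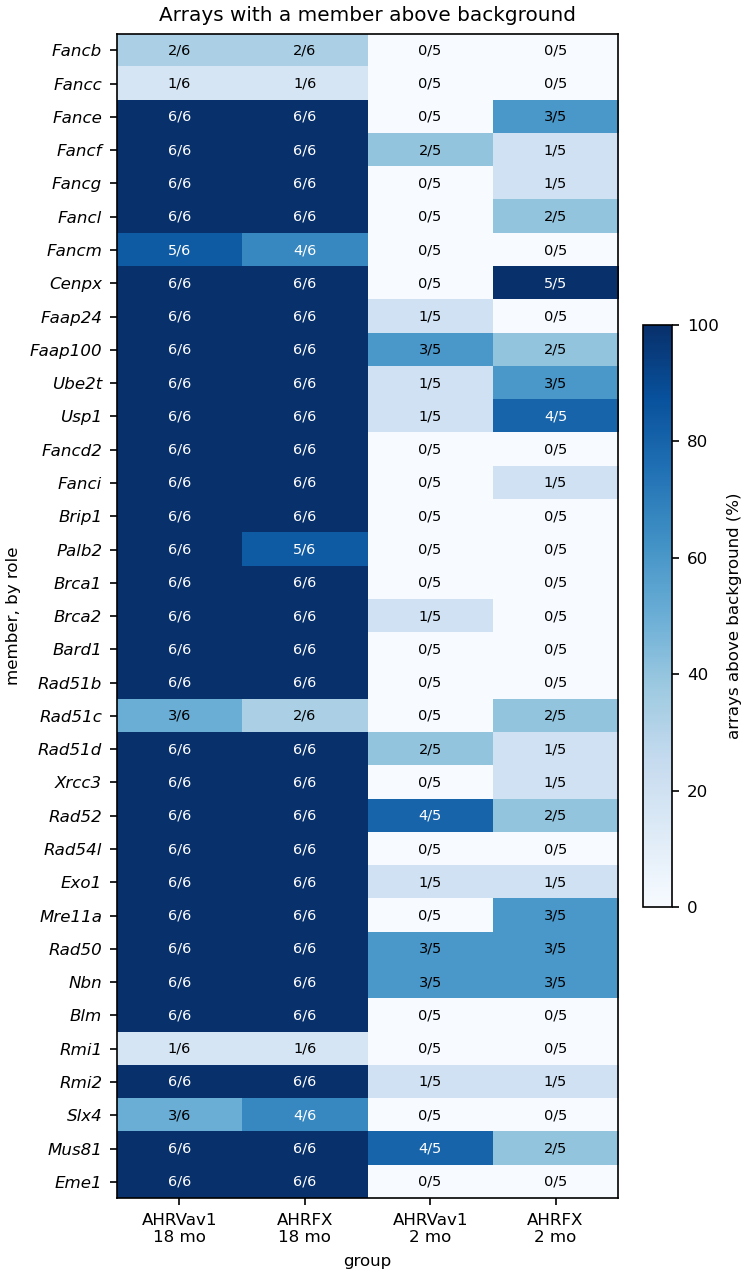
Each row is a member, ordered by role, and each column a group, and the cell gives the number of arrays on which that member was above background out of the arrays of the group, shaded by percent. Most rows are full at 18 months and empty or nearly empty at 2 months, and Cenpx is the 1 member above background in 5 of 5 AHRFX arrays at 2 months, against 0 of 5 AHRVav1 arrays.

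By member, 22 of the 35 were below background in all 5 AHRVav1 mice at 2 months and 16 in all 5 AHRFX mice, where 50.5% and 46.4% of all probe sets were. Among them were Fancd2, Brca1, Bard1, Blm, Brip1, Fancm and Rad54l in both genotypes. The members most often detected in young mice, each on 6 of the 10 arrays, were Rad50, Nbn, Mus81 and Rad52. Rad50 and Nbn, of the complex that senses broken DNA ends, were each above background in 3 of 5 AHRVav1 and 3 of 5 AHRFX mice, and Mus81, a nuclease subunit, in 4 and 2. The strand annealing protein Rad52 was above background in 4 of 5 AHRVav1 and 2 of 5 AHRFX mice. At 18 months 29 members were above background in every AHRVav1 mouse and 28 in every AHRFX mouse, as were 45.3% and 44.7% of all probe sets. The others were Fancb, Fancc, Fancm, Rad51c, Rmi1 and Slx4 in both genotypes with Palb2 in AHRFX mice.

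The first question is which of these genes differed between the genotypes in young mice. Cenpx, Fance and Fanci had lower signals in all 5 AHRVav1 mice than in any of the 5 AHRFX mice at 2 months, and Palb2 was lower with 1 crossing. After adjustment over all 26688 probe sets, 0 of the 35 members passed the 0.05 threshold in limma, and 0.0% of all probe sets did. At an unadjusted p under 0.05, 4 members were lower (Cenpx, Fance, Fanci and Palb2) and 0 were higher, where 2.69% of all probe sets were lower at that level. Groups did not overlap for 3 members, all lower in AHRVav1 mice, against 0.495% of all probe sets in that direction. Leaving out 1 animal at a time gave 3 to 7 lower members at an unadjusted p under 0.05. The count was 7 without AHRFX animal 1, which had low signals for many members, and 3 without AHRVav1 animal 5.

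Cenpx encodes a histone-fold protein that works with Fancm in anchoring the core complex to DNA and also sits at centromeres. Its signals were 74.2, 46.3, 0.0, 51.3 and 18.4 in AHRVav1 mice at 2 months, against 99.8, 332.3, 481.4, 413.1 and 196.6 in AHRFX mice. All 5 AHRVav1 values were below the background of their arrays and all 5 AHRFX values above it. The mean log2 level was 5.53 ± 0.99 in AHRVav1 and 8.15 ± 0.86 in AHRFX mice (SD, n = 5 each), a measured difference of -2.62 (SE 0.56, unadjusted p = 0.000698, adjusted p = 0.81 in limma). Against the background limit of the AHRVav1 arrays Cenpx was at least 3.05-fold lower in AHRVav1 mice. The exact permutation test gave p = 0.00794, two-sided, the smallest that 252 arrangements of 5 and 5 animals allow. Groups without overlap always give this p, so for Cenpx, Fance and Fanci it restates the lack of overlap and adds no support.

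Fance encodes the core complex subunit that binds Fancd2. Its signals were 14.0, 12.8, 0.2, 7.4 and 17.0 in AHRVav1 mice at 2 months, against 129.0, 75.7, 26.4, 97.6 and 51.9 in AHRFX mice. Every AHRVav1 value was below background, as were 2 of the 5 AHRFX values. The means were 4.67 ± 0.41 and 6.40 ± 0.69 (SD, n = 5 each), a difference of -1.73 (SE 0.35, unadjusted p = 0.000497, adjusted p = 0.689 in limma, exact permutation p = 0.00794). No fold change is given, because the background limit of the AHRVav1 arrays was above the mean of the AHRFX mice, and the same held for Fanci.

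Fanci, the partner of Fancd2 in the ID complex, had signals of 2.8, 1.6, 1.5, 0.0 and 8.5 in AHRVav1 mice at 2 months, against 21.3, 21.1, 31.8, 122.6 and 43.0 in AHRFX mice. The groups did not overlap, yet only 1 of the 10 values, in an AHRFX mouse, was above background. The difference was -1.58 (SE 0.34, unadjusted p = 0.000697, adjusted p = 0.81 in limma, exact permutation p = 0.00794). The groups overlapped for Fancd2, with signals of 13.2, 5.8, 7.5, 60.5 and 4.6 in AHRVav1 mice, against 6.1, 8.8, 9.0, 9.7 and 6.1 in AHRFX mice, all below background, and a difference of 0.32 (95% confidence interval -0.38 to 1.02).

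Palb2 links Brca1 to Brca2 at resected ends. Its signals were 18.0, 7.7, 2.7, 13.4 and 6.8 in AHRVav1 mice at 2 months, against 26.6, 16.2, 17.0, 14.9 and 17.3 in AHRFX mice. The groups overlapped in 1 AHRVav1 animal, all 10 values were below background, and the difference was -0.44 (SE 0.18, unadjusted p = 0.0343, adjusted p = 0.966 in limma, exact permutation p = 0.0476).

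These calls turned on how the spread was estimated. When all 4 groups were fitted together, so that the tight 18-month arrays set part of the error, 3 members passed the adjusted threshold at 2 months: Cenpx (adjusted p = 0.00469), Fance (0.00594) and Fanci (0.018), with 0.423% of all probe sets called in either direction. The spread was not equal between the ages: the median SD of a member within a group was 0.25 in AHRVav1 and 0.26 in AHRFX mice at 18 months and 0.64 and 0.70 at 2 months.

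**Figure D2:**
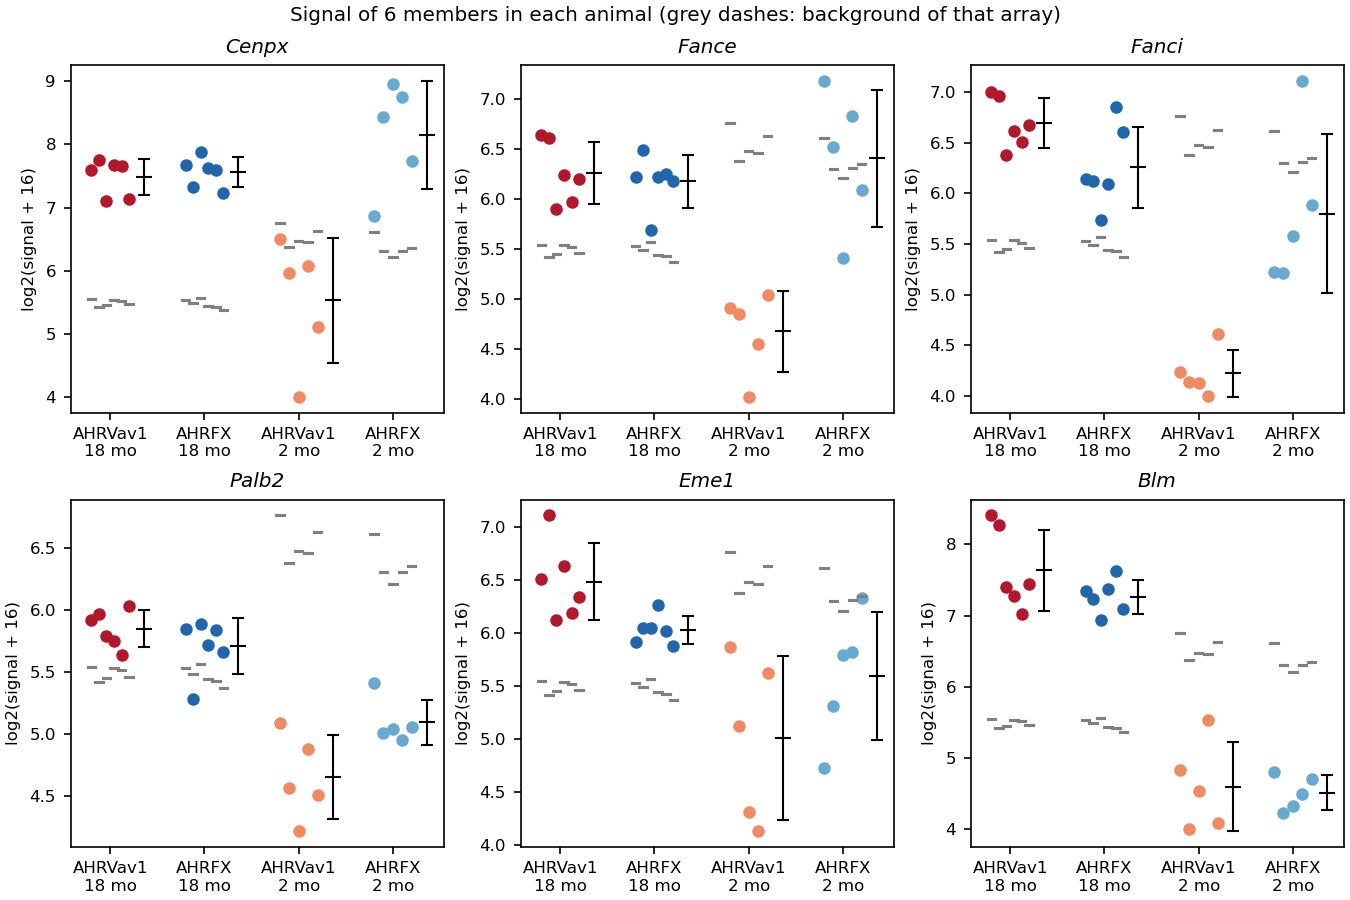
Signal on the log2(signal + 16) scale of 6 members in each animal, by group, with the mean and SD beside the points and a grey dash at the background of each array. Cenpx, Fance and Fanci are lower in the 5 AHRVav1 mice than in the 5 AHRFX mice at 2 months, with every AHRVav1 value below its dash, while at 18 months the genotypes overlap for all 6 members.

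Apart from Cenpx and Fance no core complex gene reached an unadjusted p under 0.05 at 2 months. Of its 10 measured subunits, 7 had a negative difference at 2 months and 3 a positive one. The ligase Fancl had signals of 17.9, 48.7, 7.6, 9.3 and 11.0 in AHRVav1 mice, against 75.8, 264.4, 25.9, 111.1 and 3.5 in AHRFX mice, a difference of -1.25 (SE 0.64, unadjusted p = 0.0771), with the lowest value of all in an AHRFX mouse. Faap100, which holds Fancl and Fancb together, had 41.1, 94.7, 45.7, 773.3 and 258.3 in AHRVav1 mice, against 65.8, 91.3, 54.9, 68.1 and 58.9 in AHRFX mice, a difference of 0.89 (SE 0.67, unadjusted p = 0.212) that rested on 2 animals. The differences of the other 6 subunits besides Cenpx and Fance ran from -0.77 for Fancg to 0.60 for Faap24. The mean over the 10 subunits was 5.17, 5.46, 4.70, 5.53 and 5.43 in AHRVav1 mice, against 5.87, 5.95, 5.74, 5.87 and 5.56 in AHRFX mice, and these ranges did not overlap. Without Cenpx and Fance the mean over the other 8 was 5.04, 5.47, 4.88, 5.58 and 5.52 in AHRVav1 mice, against 5.58, 5.57, 5.38, 5.39 and 5.23 in AHRFX mice, and the ranges overlapped.

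The enzymes that add and remove the ubiquitin mark varied widely among young animals. Ube2t had signals of 874.9, 35, 0.3, 26.9 and 4.7 in AHRVav1 mice at 2 months, against 9.0, 510.1, 672.2, 75.2 and 63.1 in AHRFX mice. Usp1, which removes the mark, had 17.1, 55.0, 56.2, 70.5 and 312.4 in AHRVav1 mice, against 6.0, 318.9, 1065.0, 195.3 and 156.4 in AHRFX mice. The difference was -1.33 for Ube2t (SE 1.20, unadjusted p = 0.292) and -1.18 for Usp1 (SE 0.94, unadjusted p = 0.236), and 1 AHRVav1 and 1 AHRFX animal ran against each of these averages. At 18 months the same probe sets were steady, with Ube2t between 89.4 and 114.3 (median 106.2) in AHRVav1 and between 64 and 153.2 (median 111.4) in AHRFX mice.

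No member of the recombinase, end resection or resolution groups reached an unadjusted p under 0.05 at 2 months. Rad52 had 106.6, 184.4, 200.2, 133.9 and 13.8 in AHRVav1 mice, against 15.1, 158.8, 19.3, 126.3 and 35.8 in AHRFX mice, a difference of 0.81 (95% confidence interval -0.67 to 2.29). Rad51d, which acts in homologous recombination, had 22.5, 312.3, 316.3, 15.1 and 19.1 in AHRVav1 mice, against 161.6, 34.3, 24.4, 20.9 and 52.6 in AHRFX mice, so that high and low animals occurred in both genotypes. Mus81 had 167.8, 218.6, 191.8, 136.7 and 8.1 in AHRVav1 mice, against 8.4, 286.6, 44.1, 51.7 and 134.9 in AHRFX mice, and its difference was 0.57 (95% confidence interval -1.15 to 2.30).

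Rad50, Nbn and Mre11a form the complex that binds broken ends and starts resection. At 2 months Rad50 had signals of 140.7, 30.9, 127.7, 243.0 and 9.1 in AHRVav1 mice, against 39.9, 149.7, 119.0, 359.0 and 7.0 in AHRFX mice. Nbn had 50.7, 122.9, 35.6, 101.0 and 229.1 in AHRVav1 mice, against 16.6, 640.3, 117.0, 25.6 and 383.6 in AHRFX mice. Each genotype held both high and low animals for each gene, and the differences were -0.13 for Rad50, -0.36 for Nbn, -0.61 for Mre11a and -0.05 for the exonuclease Exo1, with intervals that spanned 0.

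In the Brca group Brca2, a mediator of strand exchange, had 114.8, 17.0, 6.9, 35.8 and 11.3 in AHRVav1 mice at 2 months, against 16.5, 8.7, 9.7, 10.7 and 4.1 in AHRFX mice, and only the highest value was above background. Its difference was 0.73 (SE 0.42, unadjusted p = 0.108), and that of Brca1 was -0.63 (SE 0.37, unadjusted p = 0.115). Rmi2, a subunit of the Blm complex, had 5.8, 149.6, 0.2, 54.7 and 31.9 in AHRVav1 mice, against 8.2, 34.9, 12.8, 126.2 and 4.6 in AHRFX mice. The intervals of 31 of the 35 members spanned 0, and the median width over the 35 was 1.80 on the log2 scale, against 0.68 at 18 months, so that only large differences were detectable in young mice.

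Over all 35 members the median difference at 2 months was -0.25, with 12 above and 23 below 0, and over all probe sets it was -0.01. For 23 genes of the G2 and M phases it was -0.46, with 7 above and 16 below 0. For 24 S phase genes it was -0.06, with 11 above and 13 below 0. The mean over the members was 5.50, 5.44, 5.18, 5.47 and 5.20 in AHRVav1 mice, against 5.21, 6.01, 5.82, 5.84 and 5.51 in AHRFX mice. AHRFX animal 1 lay within the AHRVav1 range. The same animal was lowest of its group for 23 genes of the G2 and M phases, which had means of 6.44, 5.72, 6.15, 6.59 and 6.04 in AHRVav1 mice and 5.65, 6.78, 6.28, 7.28 and 7.09 in AHRFX mice, and AHRFX animals 2 to 4 had the most members above background (12, 9 and 12). Among markers of other cell types, 8 of 9 granulocyte genes had a positive difference (median 0.59, 2 of 9 at an unadjusted p under 0.05), with mean levels of 7.75 to 9.77 in AHRVav1 and 6.46 to 10.04 in AHRFX mice. Of 10 LT-HSC markers 7 had a negative difference (median -0.28, 0 at an unadjusted p under 0.05). The part of cell cycle genes, of these markers and of detection in the member differences was not tested.

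**Figure D3:**
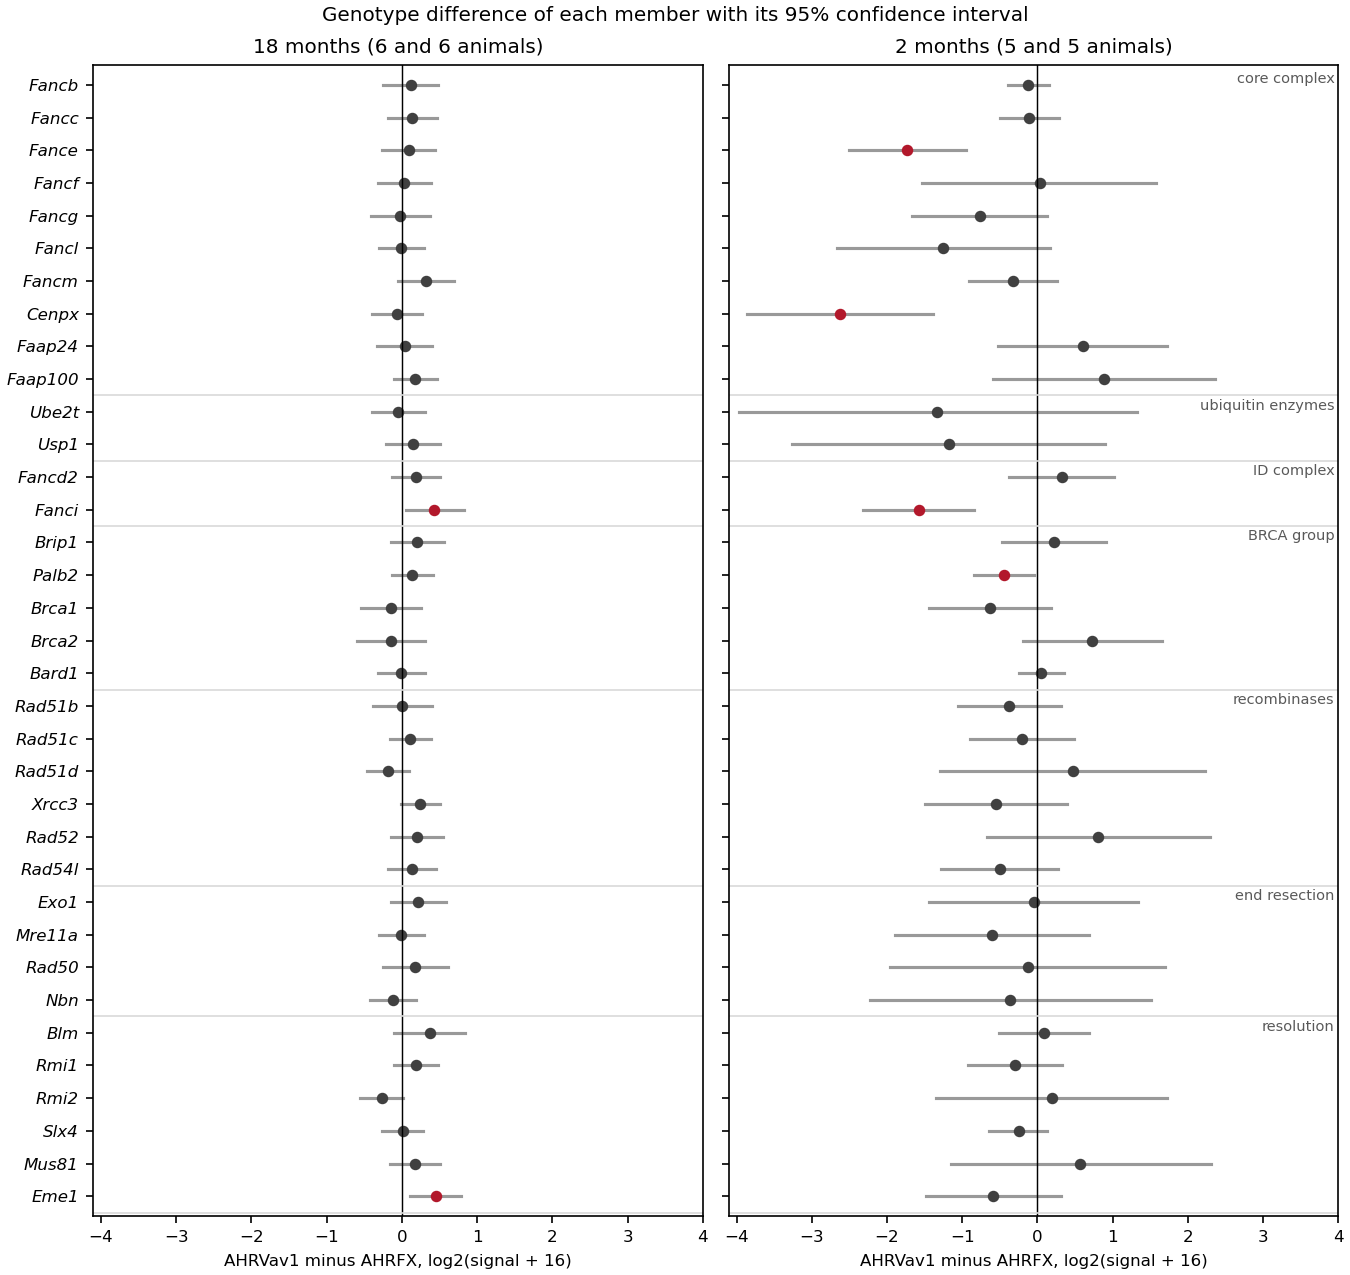
Points are the AHRVav1 minus AHRFX difference of each of the 35 members on the log2(signal + 16) scale at 18 months (left) and 2 months (right), lines are 95% confidence intervals, red marks an unadjusted p under 0.05, and grey rules separate the role groups. At 2 months the intervals are wide and Cenpx, Fance, Fanci and Palb2 lie below 0, and at 18 months all differences lie between -0.27 and 0.45.

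Next, the genotypes were compared in old mice. No member differed by more than 0.45 on the log2 scale at 18 months, and Cenpx and Fance had nearly the same level in both genotypes. After adjustment 0 of the 35 members passed in limma, as did 0.0% of all probe sets. At an unadjusted p under 0.05, 2 members were higher in AHRVav1 mice (Eme1 and Fanci) and 0 were lower, where 3.09% of all probe sets were higher at that level. The count was 4 without AHRVav1 animal 5, and it was 1 when AHRVav1 animal 1 or 2 or AHRFX animal 1, 2 or 4 was left out alone.

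Cenpx ranged from 121.0 to 200.1 (median 181.4) in AHRVav1 mice at 18 months and from 134.2 to 219.5 (median 179.4) in AHRFX mice, a difference of -0.07 (95% confidence interval -0.40 to 0.26). Fance ranged from 43.8 to 83.8 (median 58.5) in AHRVav1 mice and from 35.6 to 73.8 (median 58.4) in AHRFX mice, a difference of 0.09 (95% confidence interval -0.26 to 0.44). Both genes were above background in all 12 old mice, and their intervals did not reach the size of the differences measured at 2 months. By qPCR the study reported altered Stra13 expression in AHRVav1 LT-HSCs at both ages. Since other genes have carried the name Stra13, it is not known here whether that assay read Cenpx. On these arrays no difference was called for Cenpx at 18 months, nor for any other probe set after adjustment.

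Eme1, the partner of the Mus81 nuclease, ranged from 53.7 to 122.5 (median 69.9) in AHRVav1 mice at 18 months and from 42.7 to 60.8 (median 49.7) in AHRFX mice. All 6 AHRVav1 mice were above the AHRFX mean, although the ranges overlapped, and the difference was 0.45 (SE 0.16, unadjusted p = 0.012, adjusted p = 0.793 in limma, exact permutation p = 0.0108). Fanci ranged from 67.3 to 112.1 (median 84.2) in AHRVav1 and from 37.5 to 99 (median 54.0) in AHRFX mice. Its difference was 0.43 (SE 0.18, unadjusted p = 0.0302, adjusted p = 0.801 in limma, exact permutation p = 0.0498), which is opposite in sign to that at 2 months.

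The members of each role moved little at this age. Differences ran from -0.07 to 0.32 in the core complex, where Fancm, the translocase that carries it along DNA, was at the upper end. They ran from -0.15 to 0.20 in the Brca group, from -0.18 to 0.24 among the recombinases, from -0.12 to 0.22 in end resection and from -0.27 to 0.45 in resolution, where Rmi2 was lowest and Eme1 highest. For Rmi2 and the recombination gene Xrcc3 the limma p was over 0.05 (0.0561 and 0.0617), while the exact permutation p was 0.039 and 0.026.

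AHRVav1 animals 1 and 2 stood apart at 18 months. Their mean over the 35 members was 6.83 and 6.79, against 6.49 to 6.61 in the other 4 AHRVav1 mice and 6.46 to 6.67 in the 6 AHRFX mice. Blm, the helicase that dissolves crossed strands, had signals of 323.4 and 292.4 in these 2 animals, against 114.2 to 158.1 in the other 4 AHRVav1 mice and 106.7 to 182.6 in AHRFX mice. The same 2 animals were highest of all 12 for the mean of 24 S phase genes (8.98 and 8.95, against 8.37 to 8.68 and 8.26 to 8.5).

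Erythroid genes were high in the same animals. The mean of 4 matched erythroid markers was 8.37 and 8.32, against 6.00 to 6.81 in the other AHRVav1 mice and 6.38 to 7.14 in AHRFX mice. Klf1, the erythroid master regulator, had signals of 856.5 and 771.5, against 30.5 to 119.5 in the other AHRVav1 mice and 59.3 to 185.0 in AHRFX mice, and Tfrc and Epor, the transferrin and erythropoietin receptors, were also highest there, while Slc4a1, a protein of mature red cells, was not. None of these 4 markers was at 0 in any old mouse, and the other 4 of the list, among them the globin genes, had no probe set of their own. Cd48, which the gate selects against, was low in animals 1 and 2 of both genotypes, with 87.6 and 127.3 in AHRVav1 and 205.7 and 167.8 in AHRFX mice, against 350.0 to 574.7 in the other AHRVav1 and 427.5 to 511.5 in the other AHRFX mice.

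Without these 2 AHRVav1 animals and AHRFX animals 1 and 2, 0 of 35 members were higher and 0 lower at an unadjusted p under 0.05. Of all 26688 probe sets, 889 were higher and 717 lower at that level without them. The median member difference was then 0.02, with 18 of 35 above 0, where it was 0.12, with 24 of 35 above 0, over all animals. Over all probe sets the median was 0.00 with all animals and 0.01 without these. The difference was then 0.27 for Eme1 (SE 0.16) and 0.22 for Fanci (SE 0.22), and that of Blm was 0.03, where it was 0.37 with all animals. With all animals, 22 of 24 S phase genes (median 0.23) and 21 of 23 G2 and M phase genes (median 0.13) had a positive genotype difference. All 10 LT-HSC markers (median -0.16), 6 of 6 megakaryocyte and 6 of 6 mast cell and basophil markers had a negative one. After adjustment 0 of these genes passed in limma. Whether the erythroid or S phase genes of these animals, or these gene sets, account for the member levels was not tested.

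**Figure D4:**
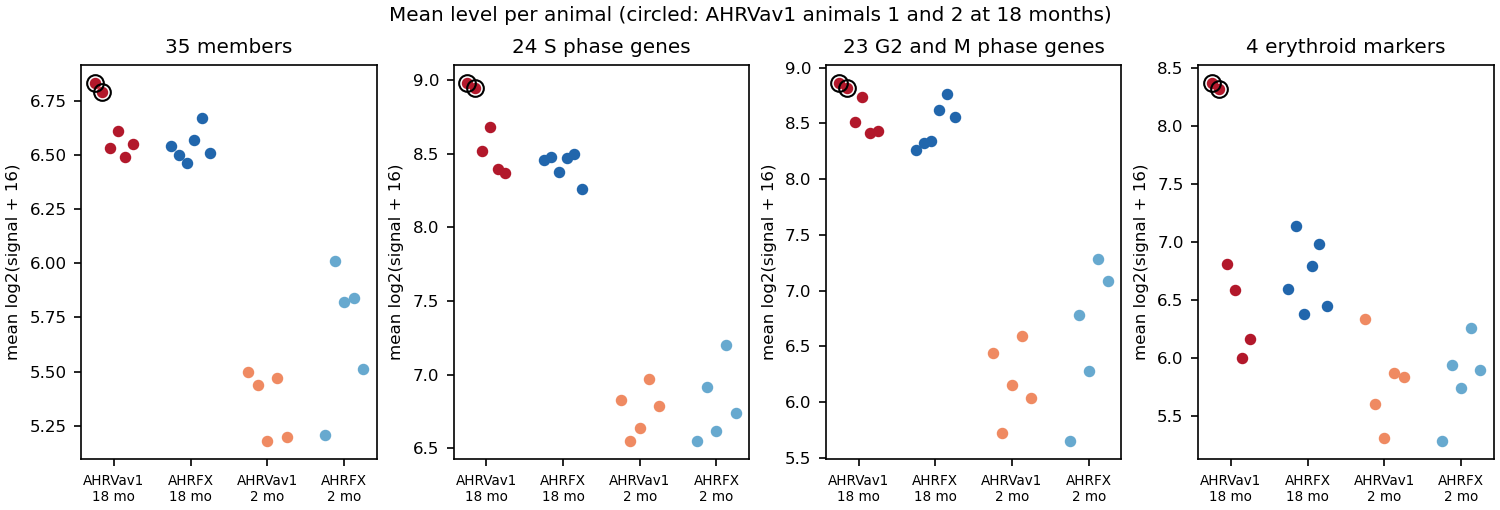
Each point is 1 animal, and the y axis is the mean log2(signal + 16) over the 35 members, 24 S phase genes, 23 G2 and M phase genes and 4 erythroid markers, by group. The circled AHRVav1 animals 1 and 2 are the highest of the 18-month mice in all 4 panels, and animals at 2 months are lower than all those at 18 months for the members and the cell cycle genes.

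The effect of age was then compared within each genotype. Of the repair genes called, 23 of 23 in AHRVav1 and 17 of 19 in AHRFX mice had higher signals at 18 than at 2 months. After adjustment 23 of 35 members were higher and 0 lower in AHRVav1 mice, or 65.7%, against 22.8% of all probe sets higher and 26.2% lower. In AHRFX mice 17 were higher (48.6%) and 2 lower, Rad51c and Rmi1, against 20.2% and 24.2% of all probe sets. The medians over the members were 1.47 in AHRVav1 and 0.93 in AHRFX mice, against -0.09 and -0.11 over all probe sets.

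Because the spread differed between the ages, a fit that gave each age its own spread was added after the data were seen. With it 22 members were higher and 0 lower in AHRVav1 mice, against 20.2% of all probe sets higher, and 17 were higher and 0 lower in AHRFX mice, against 17.5%, so that the lower calls of Rad51c and Rmi1 were lost. Without AHRVav1 animal 5 at 2 months 2 members were lower with age in AHRVav1 mice. The sources used here do not give dates or runs for the arrays, so age and any difference in handling cannot be told apart.

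Groups did not overlap for 20 members in AHRVav1 mice, or 57.1%, against 13.1% of all probe sets in the higher direction, and for 11 members in AHRFX mice, or 31.4%, against 10.7%. Blm, below background in all young mice, had the largest measured difference of the members in both genotypes, although by the bounds Rad54l was ahead of it in AHRFX mice. Blm ranged from 114.2 to 323.4 (median 155.4) at 18 months in AHRVav1 mice, against 12.4, 0.0, 7.2, 30.5 and 1.0 at 2 months, where all 5 values were below background. In AHRFX mice it ranged from 106.7 to 182.6 (median 141.0) at 18 months, against 12.0, 2.8, 4.1, 6.5 and 10 at 2 months, again all below background. Blm was at least 2.14-fold higher at 18 months in AHRVav1 mice (measured difference 3.04, SE 0.35, adjusted p = 4.51e-05 in limma) and at least 1.88-fold higher in AHRFX mice (2.76, SE 0.21, adjusted p = 5.38e-06).

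Bard1, the obligate partner of Brca1, ranged from 61.9 to 98.1 at 18 months in AHRVav1 mice, against 0.4 to 10.5 at 2 months, and from 57.2 to 91.3 in AHRFX mice, against 2.5 to 4.8. Its measured differences were 2.20 (SE 0.19, adjusted p = 7.7e-06 in limma) and 2.26 (SE 0.16, adjusted p = 4.69e-06), but because the young values were below a high background the bounds were only 1.01-fold and 1.15-fold. Rad54l, a motor protein of homologous recombination, ranged from 123.3 to 207.9 at 18 months in AHRVav1 mice, against 4.0 to 44.9 at 2 months, and from 115.9 to 200.1 in AHRFX mice, against 9.6 to 60.4. It was at least 1.84-fold higher in old AHRVav1 mice (2.53, SE 0.29, adjusted p = 4.71e-05) and at least 1.91-fold higher in old AHRFX mice (1.89, SE 0.29, adjusted p = 0.000416).

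The other members with the smallest p in AHRVav1 mice were Fanci (2.47, SE 0.18, adjusted p = 3.8e-06 in limma), Fancm (1.58, SE 0.15, adjusted p = 1.25e-05) and Brca1 (2.19, SE 0.24, adjusted p = 3.08e-05). In AHRFX mice they were Fancd2 (2.11, SE 0.17, adjusted p = 8.2e-06), the helicase Brip1 (2.06, SE 0.25, adjusted p = 7.74e-05) and Brca2 (1.82, SE 0.22, adjusted p = 8.4e-05). Their groups did not overlap between the ages. A bound above 1-fold could be given for 11 members in AHRVav1 mice, from 1.01 to 2.14, and for 8 members in AHRFX mice, from 1.10 to 1.91, since for the other members called the limit lay above the old mice or some young mice were above background.

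By role, again after adjustment, 7 of 10 core complex subunits were higher at 18 months in AHRVav1 mice and 5 of 10 in AHRFX mice. Of all probe sets 22.8% and 20.2% were called higher, and no role was tested against these shares. The deubiquitinase Usp1 was higher in AHRVav1 mice and neither ubiquitin enzyme in AHRFX mice. Both ID complex genes were higher in AHRVav1 mice, and Fancd2 alone of the 2 in AHRFX mice, and in the Brca group 4 of 5 and 5 of 5 were higher. Among the recombinases 3 of 6 were higher in AHRVav1 mice (Rad51b, Xrcc3 and Rad54l) and 2 of 6 in AHRFX mice (Rad51b and Rad54l). In end resection the numbers were 3 of 4 and 2 of 4, with Mre11a and Exo1 in both genotypes. In resolution they were 3 of 6 (Blm, Slx4 and Eme1) and 2 of 6 (Blm and Slx4).

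**Figure D5:**
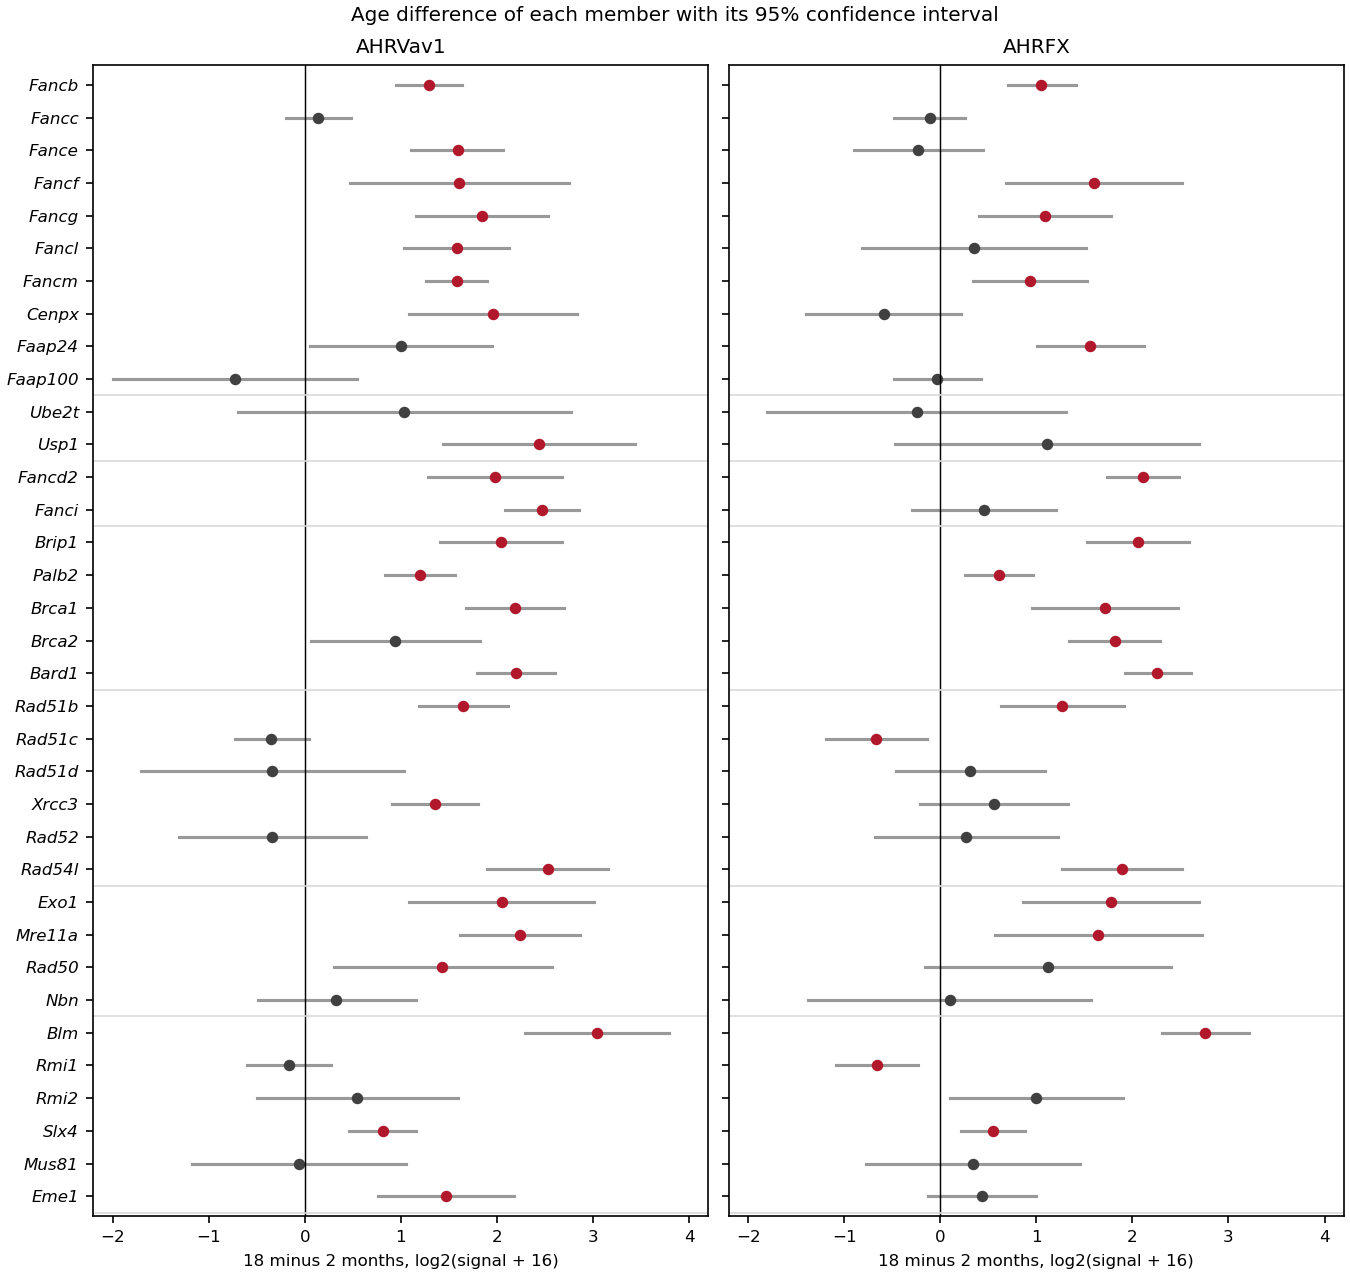
Points are the 18 minus 2 month difference of each of the 35 members on the log2(signal + 16) scale in AHRVav1 (left) and AHRFX mice (right), lines are 95% confidence intervals, and red marks an adjusted p under 0.05 in the fit with a common spread. Blm, Rad54l and Bard1 lie far to the right in both panels, and Cenpx, Fance and Fanci do so in AHRVav1 mice only by that threshold.

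Of the 23 members higher with age in AHRVav1 mice, 15 were also called in AHRFX mice, or 65.2% of the first list and 88.2% of the second. Past the threshold in AHRVav1 mice but not in AHRFX mice were Fance, Fanci, Fancl, Cenpx, Usp1, Xrcc3, Eme1 and Rad50, and the reverse held for Faap24 and Brca2. Cenpx had an age difference of 1.96 in AHRVav1 mice (SE 0.40, adjusted p = 0.00206 in limma), at least 1.93-fold, and of -0.59 in AHRFX mice (SE 0.38, adjusted p = 0.21). For Fance it was 1.59 in AHRVav1 mice (SE 0.22, adjusted p = 0.00018) and -0.23 in AHRFX mice (SE 0.31, adjusted p = 0.558). For Fanci in AHRFX mice it was 0.45 (SE 0.35, adjusted p = 0.291). Passing in one genotype and not in the other is no test of a difference, which is given by the genotype by age term below.

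Other genes of the same repair system, 48 of 53 matched to a probe set of their own, were compared in the same way. At 2 months 0 of 48 passed the adjusted threshold in limma. At an unadjusted limma p under 0.05 the nuclease gene Ercc4 was lower in AHRVav1 mice (-0.68, SE 0.20, unadjusted p = 0.00655) and the helicase gene Mcm9 was higher (0.46, SE 0.20, unadjusted p = 0.0456). This is 1 of 48 in each direction, where 718 probe sets of 26688 were lower and 519 higher. Their median was 0.04 at 2 months and 0.12 at 18 months. At 18 months 0 of 48 passed, and 1 of 48, Swi5, was higher at an unadjusted p under 0.05 (0.43, SE 0.13, unadjusted p = 0.00407), against 3.09% of all probe sets. With age 31 of 48 were higher in AHRVav1 mice and 28 of 48 in AHRFX mice, with 0 lower in each. Of all probe sets 22.8% and 20.2% were higher with age.

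The cell cycle genes also had higher signals at 18 months. After adjustment 21 of 24 S phase genes and 21 of 23 G2 and M phase genes were higher in AHRVav1 mice. In AHRFX mice 20 and 19 were. The shares of all probe sets were 22.8% in AHRVav1 and 20.2% in AHRFX mice. Markers of other cell types were mixed between the ages, and some sets did not exceed these shares. Of 6 megakaryocyte markers 4 were higher after adjustment in AHRVav1 mice (median 1.59) and 5 in AHRFX mice (median 1.82), of 6 mast cell and basophil markers 4 and 3 (medians 1.46 and 1.43), of 6 macrophage markers 4 and 4 (0.93 and 1.62), of 4 erythroid markers 1 and 3 (1.55 and 1.08), and of 9 granulocyte markers 1 and 4 (0.41 and 1.0). B cell markers had 0 of 6 higher and 2 lower in each genotype. T and NK cell markers had 2 of 6 higher and 2 lower in AHRVav1 mice, and 2 and 1 in AHRFX mice. Stromal and endothelial markers had 1 of 6 higher and 1 lower in AHRVav1 mice, and 3 and 1 in AHRFX mice. Among 3 genes taken to be low in the gate, with Cd34 and Cd48, 2 were higher in AHRVav1 and 1 in AHRFX mice. Of the 10 LT-HSC markers 1 was higher and 2 lower in AHRVav1 mice and 2 were higher and 2 lower in AHRFX mice. The part of all these genes in the age difference of the repair genes was not tested.

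Lastly, the genotype effect was compared between the ages, as the difference at 18 months minus that at 2 months. Fanci, Cenpx and Fance had the 3 smallest p of the members, each with a lower level in young AHRVav1 mice and nearly no difference, or for Fanci the opposite one, in old mice. After adjustment 0 of 35 members passed in limma, against 0.0112% of all probe sets. At an unadjusted p under 0.05, 5 members were positive (Fanci, Fance, Cenpx, Palb2 and Eme1) and 0 negative, where 4.22% of all probe sets were positive at that level.

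The values were 2.01 for Fanci (SE 0.39, adjusted p = 0.127 in limma), 1.82 for Fance (SE 0.38, adjusted p = 0.211), 2.55 for Cenpx (SE 0.56, adjusted p = 0.238), 0.58 for Palb2 (SE 0.22, adjusted p = 0.526) and 1.04 for Eme1 (SE 0.43, adjusted p = 0.57). With an added constant of 1 in place of 16, Fanci passed the threshold (4.24, SE 0.66, adjusted p = 0.0181), a setting that gives more weight to signals near 0. Leaving out 1 young AHRFX animal also brought 1 member past it, Fanci without animal 2 (2.16, adjusted p = 0.0454) or animal 4 (1.68, adjusted p = 0.0383) and Fance without animal 3 (2.07, adjusted p = 0.0296). Leaving out 1 array gave 4 to 10 positive members at an unadjusted p under 0.05. The count was 10 without AHRFX animal 1, 8 without AHRFX animal 2 and 8 without AHRVav1 animal 5, all at 2 months. The median over the members was 0.31, with 25 of 35 above 0, against 0.01 over all probe sets. These contrasts use the same arrays as the genotype comparisons and add no independent evidence on the young mice.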

How the data were processed

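RNA from sorted LT-HSCs of 22 mice was amplified with the WT-Ovation PicoSL kit and hybridised to Mouse Gene 2.0 ST arrays. The authors deposited 1 table of linear intensity values for 26688 probe sets, background-subtracted and quantile normalized by IterPLIER in Affymetrix Expression Console, with the version not given in the sources used here. Values of 0 occur. Columns not mapped to a sample numbered 0. Samples were grouped by the genotype and age in their labels. The source label of the AHRFX samples calls the mice Ahr knockouts, against their titles, and the titles were used.

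Differences were tested on log2(signal + 16) with limma 3.58.1 in R 4.3.3 (lmFit, eBayes with a mean-variance trend), with the groups of a comparison alone and all 4 groups for genotype by age, and with Benjamini-Hochberg adjustment over all probe sets at a threshold of 0.05. Single members at each age were also tested by exact two-sided permutation over animals, 252 arrangements at 2 months and 924 at 18 months. These exact p-values were not adjusted over the members.

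Bounds on fold changes used, for the dim group, the higher of the background percentile and the measured value on each array. They compare group means and make no allowance for sampling error. Where a group was below background on every array, its measured log2 difference and test are given as computed, and a fold only as such a bound, where it is above 1. Per-animal values were given for Fance and Cenpx, which the study discussed, for at most 8 members of smallest unadjusted p under 0.05 in a genotype comparison, for at most 6 of smallest p in an age or genotype by age comparison, and for the 2 members of each role most often above background. Fancl, Fancg, Xrcc3, the Blm difference at 18 months, and Ercc4, Mcm9 and Swi5 outside the set were named after their values were seen. The members and all gene lists were chosen with earlier results of these data known. Gene symbols came from the platform annotation. No 2 arrays held identical values. The scripts were tested on simulated data with 200 probe sets changed by 3 on the log2 scale. Genotype at 2 months recovered 113 with 4 false calls, and at 18 months 200 with 2. Age recovered 180 with 58 false calls in AHRVav1 and 171 with 53 in AHRFX mice. With a spread for each age these were 135 with 30 and 133 with 16. Genotype by age recovered 139 with 47, and 111 with 9 when each age had its own spread. The age and genotype by age fits thus made more false calls than the 0.05 threshold implies. Each array is 1 animal, so the spread behind the p-values joins differences between animals with those of sorting, amplification and array. Alternatives were other added constants (1 and 64), only brighter probe sets, only probe sets of 1 symbol, renewed quantile normalization, no trend, array weights, an unmoderated test, all 4 groups in 1 fit, leaving out arrays, a replicate block and a spread for each age.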

Additional observations from a re-analysis of the deposited data

Results flagged for a closer look

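Single animals lay far from the rest of their group for 13 of the 140 combinations of a member and a group that were examined with Dixon's criterion, which chance alone meets in about 1 of 20 groups. In AHRVav1 mice at 2 months these were Ube2t (874.9) and Fancb (6.7, below background) in animal 1, Exo1 (126.1) in animal 3, Fancd2 (60.5, below background) in animal 4, and Rad52 (13.8) and Mus81 (8.1) in animal 5. The low Rad52 and Mus81 values came from the same animal, and the other 4 AHRVav1 mice had 106.6 to 200.2 for Rad52 and 136.7 to 218.6 for Mus81.

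In AHRFX mice at 18 months they were Fancf (292.1) and Brip1 (63.9) in animal 1, Brca1 (154.2) in animal 2, Mre11a (141.5) in animal 3, Fancg (154.3) in animal 4 and Nbn (171.5) in animal 5. At 2 months Palb2 (26.6) stood out in AHRFX animal 1. Of 32 combinations of a gene group and a group of mice, 1 stood out, the mean over the end resection genes in AHRFX animal 5 at 18 months (7.77).

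The genotype difference of Fanci differed in direction between the ages: every AHRVav1 mouse was above the AHRFX mean at 18 months and below it at 2 months. The difference between the ages was 2.01 on the log2 scale (SE 0.39) with an adjusted p of 0.127 in limma, so it did not pass the threshold. At 2 months the AHRVav1 values were all below background, and the part of background in the difference was not tested.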

How the results depend on the processing

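Of 370 alternative values of counts and medians, 326 stayed within the limits set, and 44 moved, and of 618 alternative values of single members 608 kept direction and side of the threshold, 7 newly passed it and 3 reversed. At 2 months 0 members passed after adjustment except with all 4 groups in 1 fit, which called 3 (Cenpx, Fance and Fanci), and leaving out 1 array gave 0 to 0, 3 to 7 lower at an unadjusted p, and a median of -0.33 to -0.16. At 18 months 2 members higher at an unadjusted p became 1 with array weights, 0 with all 4 groups and 0 without arrays 1 and 2 of each genotype, and 1 to 4 without 1 array, with medians of 0.08 to 0.15. Fance reversed to -0.01 without arrays 1 and 2 and lay between -0.01 (without AHRFX animal 3) and 0.16 without 1 array, and Cenpx between -0.14 and 0.01 (without AHRVav1 animal 3). For age in AHRVav1 mice the count of lower members became 1 with quantile normalization and 0 to 2 without 1 array (2 without AHRVav1 animal 5 at 2 months), that of higher members 22 to 24, and the median 2.37 with an added 1, 0.75 with 64, 1.30 with quantile normalization, 1.31 without arrays 1 and 2, and 1.36 to 1.60 without 1 array. For age in AHRFX mice the 2 lower members became 0 among brighter probe sets, 0 with array weights, 0 with the replicate block, 0 with a spread for each age, 1 in the unmoderated test, 1 without arrays 1 and 2, and 1 without AHRFX animal 1, 3, 4, 5 or 6 at 18 months or 3 at 2 months, that of higher members 17 to 20, and the median 1.43 with an added 1, 0.36 with 64, and 0.69 to 0.98 without 1 array. For genotype by age 1 member (Fanci) passed with an added 1, and 0 to 1 without 1 array. Its 5 positive members became 3 without arrays 1 and 2 and 4 to 10 without 1 array, and its median 0.60 with an added 1 and 0.24 to 0.48 without 1 array. With the 99th percentile as background 11, 15 and 121 member values passed in AHRVav1 and AHRFX mice at 2 months and AHRFX mice at 18 months. The labels do not say that replicate numbers pair the animals. Residuals of same-numbered animals correlated by 0.005 to 0.062 at 2 months, with 2 of 5 correlating best with their own number, and at 18 months by 0.17 to 0.252 in 5 pairs and by -0.124 in pair 5, with 3 of 6. Other counts moved by at most 1 with the replicate block, to 5 lower at 2 months, 22 and 16 higher with age in AHRVav1 and AHRFX mice, and 6 positive for genotype by age. Each member has 1 probe set, so averaging probe sets changed nothing. The causes of these shifts were not tested. At 2 months signal near background limits most values.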
